A study of Mus musculus with 4 samples.

Results

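The 7SK RNA (gene Rn7sk) is a short nuclear RNA made by RNA polymerase III. In the list of SRSF4-GFP crosslink sites in neonatal mouse cardiomyocytes, its locus held 78 of 33749 sites and 1559 of 93371 cDNAs. The sites were all rows on the minus strand of chromosome 9 between 78023000 and 78023500 of the mm9 genome build, a window given as the 7SK locus and chosen because of its high cDNA numbers. The counts below are therefore a description and were not tested.

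Cardiomyocytes came from C57BL/6 mice at postnatal day 0 or 1. They were plated and transfected the next day with 15 μg of modified RNA (modRNA) for SRSF4 fused to GFP, so the protein mapped was an introduced one. At 48 h the cells received 100 mJ of ultraviolet light at 254 nm, and RNA crosslinked to the fusion protein was recovered with an anti-GFP antibody for iCLIP, after RNase I had cut it to 80 to 200 nt. The 4 libraries form 1 group, with no GFP-alone, input or untransfected group, so that RNA bound by SRSF4 and background in the pull-down cannot be told apart. The labels also hold a text on RNA from frozen hearts, and they do not say whether the libraries came from separate cultures.

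iCLIP reads contacts from the place where reverse transcription stops, next to the crosslinked nucleotide. A site here is 1 nt with at least 1 cDNA in the authors' significant list, and its value is the number of cDNAs that stop there, pooled over all data sets. No replicate values exist in the pool, so the errors given are exact 95% counting intervals (Poisson for a count, binomial for a share), which cover counting error only. The level of 7SK RNA in these cells was not measured, and the cDNA numbers are not corrected for abundance. The cell type could not be checked against marker genes, since the file holds no gene names.

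7SK RNA is the scaffold of a ribonucleoprotein that holds the transcription elongation factor P-TEFb in an inactive state. The inhibitor HEXIM1 binds to the 5′ hairpin and contacts P-TEFb, the enzyme MEPCE caps the 5′ end, and the La-related protein LARP7 binds to the 3′ end. In heart muscle, release of P-TEFb from this particle has been tied to hypertrophic growth, and another SR protein, SRSF2, has been found in 7SK complexes. SRSF4 itself is a serine and arginine-rich splicing factor, of a family that binds exonic sequence in messenger RNA precursors and helps splice sites to be recognised.

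The annotated mouse RNA, a single-exon gene on the minus strand of chromosome 9, is 331 nt long in GENCODE M21 and 332 nt in RefSeq. Its nt 110 to 331, counted from the 5′ end, are shown because the contacted part must lie there if the whole RNA lies in the window. They also hold the part without an exact copy in other annotated transcripts, by windows of 30 nt. Capitals mark nt 218 to 326, the stretch made of 30 nt windows that occur in no other annotated transcript. The sequence is the GENCODE M21 transcript of Rn7sk, in DNA letters, 5′ to 3′.
Rn7sk: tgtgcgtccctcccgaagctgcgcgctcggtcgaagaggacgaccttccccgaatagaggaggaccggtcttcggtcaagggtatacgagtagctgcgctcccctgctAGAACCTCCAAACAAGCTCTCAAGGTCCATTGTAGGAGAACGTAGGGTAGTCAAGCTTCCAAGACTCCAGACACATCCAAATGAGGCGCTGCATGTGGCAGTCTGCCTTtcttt

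Contacts covered one compact part of 7SK and left most of the RNA without a listed site. The 78 sites lay within 81 nt, from 78023221 at the 5′ side of the minus strand to 78023141 at the 3′ side. They make up 23.6% of the 331 nt of the RNA, and 253 nt had no site. Of the 81 nt, 77 in a row carried a site each, from 78023221 to 78023145, and together these held 1558 of the 1559 cDNAs. The nucleotides from 78023144 to 78023142 had no site, and 1 cDNA marked 78023141. Inside the span no gap reached 5 nt.

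The locus stood alone in its surroundings. No plus-strand site fell in the window, and the nearest plus-strand site on chromosome 9 was 445319 nt away. The nearest other sites on the minus strand lay 67567 nt away toward lower coordinates and 305675 nt away toward higher ones, with 1 cDNA each. The window's edges therefore decided nothing about which sites were counted. The locus held 5.20% of the 1500 sites of chromosome 9 but 36.6% of its 4257 cDNAs (interval 35.2% to 38.1%), and 51.7% of the cDNAs on its minus strand (interval 49.9% to 53.5%).

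Most contacted nucleotides held many cDNAs. Sites ranged from 1 to 82 cDNAs, with a median of 15, a 25th percentile of 9 and a mean of 19.99 (SD 15.7 over 78 nucleotides, which are not replicates). Only 2 of 78 sites held a single cDNA, whereas 65.7% of the 32813 nuclear sites elsewhere did. Of the 78 sites, 54 (69.2%) held 10 or more cDNAs, beside 4.62% of nuclear sites elsewhere. As the locus was chosen for its cDNA numbers, this gap is a property of the choice. The share of all listed cDNAs was 1.67% (interval 1.59% to 1.75%), on 0.231% of the sites.

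Read from the 5′ side, the profile began low. The first 10 nt, from 78023221 to 78023212, held 12, 1, 2, 6, 4, 2, 2, 7, 9 and 13 cDNAs, in all 3.72% of the locus total. The 12 cDNAs at the very first nucleotide (interval 6.20 to 21.0) stood beside a single one at the next, a step whose counting intervals do not overlap. From 78023211 to 78023202 the values were 5, 9, 7, 9, 5, 27, 38, 22, 15 and 12. The rise from 5 to 27 between 78023207 and 78023206 opened the first hump, whose top, 38 cDNAs, was at 78023205.

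The second hump was broader and flatter. From 78023201 to 78023192 the nucleotides held 7, 11, 26, 29, 11, 33, 34, 37, 37 and 36 cDNAs, together 16.7% of the total. The last 5 of these form a plateau with overlapping intervals. It ended sharply, at 27 cDNAs on 78023191 and 6 on 78023190. From 78023191 to 78023182 the values were 27, 6, 2, 8, 6, 20, 19, 20, 20 and 15. The trough of 4 nt within that block, 6, 2, 8 and 6 cDNAs, was the lowest place in the inner part of the profile, and the 4 values after it, 19 or 20 each, cannot be ordered.

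The middle and 3′ part carried the tallest nucleotides. From 78023181 to 78023172 the values were 31, 14, 6, 15, 13, 25, 41, 37, 45 and 14. From 78023171 to 78023162 they were 22, 19, 12, 35, 82, 65, 42, 29, 14 and 9, the block with the most cDNAs at 329, or 21.1% (interval 19.1% to 23.2%). It holds the tallest nucleotide of the RNA, 78023167, with 82 cDNAs. From 12 cDNAs at 78023169 the profile climbed to 35 and then to 82 within 2 nt, and it fell more slowly on the 3′ side.

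The last 21 nt alternated between single tall nucleotides and low ones. From 78023161 to 78023152 the values were 38, 21, 24, 13, 10, 23, 21, 38, 10 and 15, so that every nucleotide had at least 10. From 78023151 to 78023142 they were 9, 7, 65, 37, 17, 20, 9 and then 3 nucleotides without a site. The step from 7 cDNAs at 78023150 to 65 at 78023149 was the largest rise between neighbours whose intervals do not overlap. Over the next 4 nt the values went from 37 to 9, and beyond these the only site was the single cDNA at 78023141. The 3′ edge was thus steeper than the low ramp at the 5′ edge. A cDNA is read from its stop toward the 3′ side of the RNA, and a contact too near the 3′ end leaves too short a cDNA to be mapped. The shortest cDNA kept is not known from the labels or the file, and the part of this limit in the 3′ edge was not tested.

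**Figure D1:**
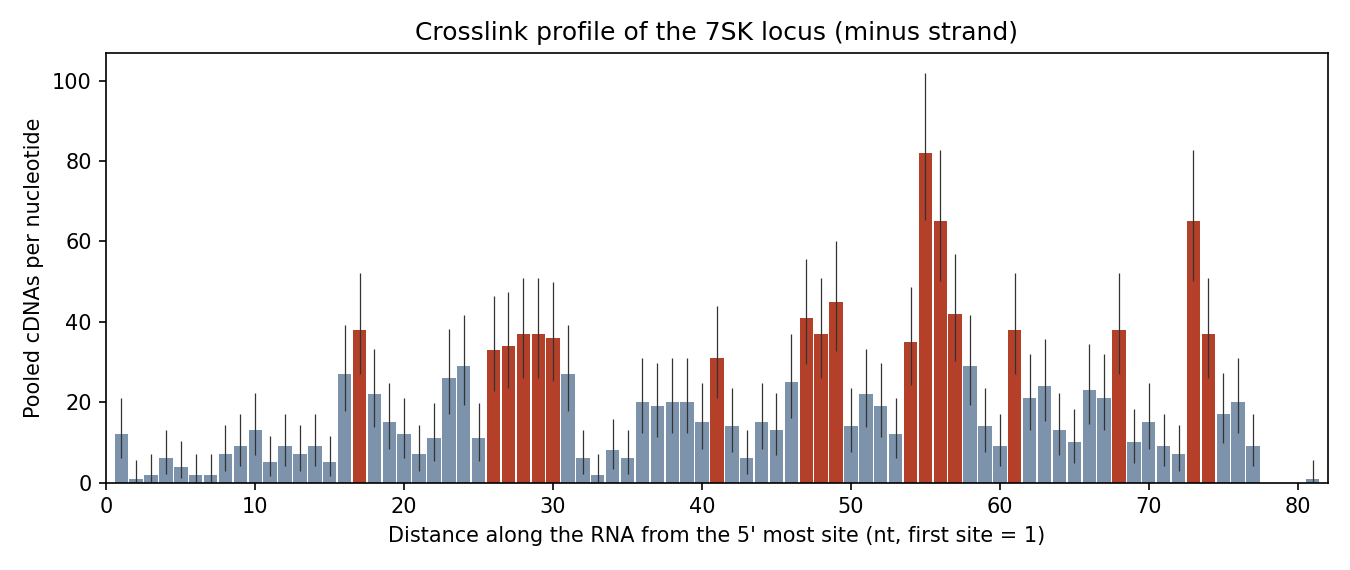
Pooled cDNAs at each of the 81 nt of the 7SK locus (vertical axis, linear), by distance in nt from the site at the 5′ end of the span (horizontal axis); lines are exact 95% Poisson intervals and red bars are the 18 nucleotides with 30 or more cDNAs. The tallest nucleotide, with 82 cDNAs, lies 55 nt along, and 3 nt just before the last site are empty.

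By position, the weight lay toward the 3′ side of the span. Of 3 segments of 27 nt, the 5′ segment held 358 cDNAs (23.0%, interval 20.9% to 25.1%), the middle one 582 (37.3%, interval 34.9% to 39.8%) and the 3′ one 619 (39.7%, interval 37.3% to 42.2%). The middle and 3′ segments overlap in their intervals, and the 5′ segment lies below both. Stretches of at least 10 nt with 10 or more cDNAs at each nucleotide numbered 3. The longest, from 78023178 to 78023163, was 16 nt long and held 510 cDNAs, or 32.7% of the total. The other two were 10 nt each, from 78023200 to 78023191 with 281 cDNAs and from 78023161 to 78023152 with 213.

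The order of the tallest nucleotides was only partly resolved. The 82 cDNAs at 78023167 have an interval of 65.2 to 102. The next were 65 at 78023166 and 65 at 78023149, each with an interval of 50.2 to 82.8, which overlaps that of the first. Then came 45 at 78023173, 42 at 78023165 and 41 at 78023175. The places from the seventh to the ninth were shared by 78023205, 78023161 and 78023154, with 38 cDNAs each. The tenth place was a tie of 78023194, 78023193, 78023174 and 78023148, with 37 cDNAs each. From the fourth place down to this tie the intervals overlap, so these nucleotides have no resolved order. The interval of the fourth, 32.8 to 60.2, also overlaps those of the 2 nucleotides with 65. Among 76 pairs of adjacent contacted nucleotides, 10 had intervals that did not overlap.

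Contacts were spread over the span and not held by one nucleotide. The tallest nucleotide carried 5.26% of the locus cDNAs (interval 4.20% to 6.49%), and the 10 tallest carried 31.5% (interval 29.2% to 33.9%). It took 19 nucleotides to reach 50% of the cDNAs and 53 to reach 90%. Sites with 20 or more cDNAs numbered 34 and held 73.6% of the total.

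Set among 19 other narrow runs, the 7SK locus carried more cDNAs, with a smaller share of them at the tallest nucleotide. A run joins sites of 1 strand less than 500 nt apart, and the 78 sites form 1 run. By cDNAs it had rank 3 among 6405 nuclear runs, after runs of 1667 nt on chromosome 17 and 6351 nt on chromosome 19. By number of sites it had rank 24. The other 19 nuclear runs that were 40 to 160 nt wide and had 200 or more cDNAs held 203 to 887 cDNAs, with a median of 258. Their tallest nucleotide carried 6.11% to 84.1% of the run, with a median of 19.6%, against 5.26% in 7SK. They had a site at a median of 60.3% of their nucleotides, against 96.3% in 7SK. Only one of them had a higher share, a minus-strand run of 63 nt on chromosome 13 with 262 cDNAs. Mean cDNAs per site were higher in 3 of the 19. Among the 86 nuclear runs of 30 or more sites, of any width, the share at the tallest nucleotide had only rank 32 from the lowest, and the median of the other runs was 8.00%. No test was made of these differences, because the locus and the runs were all picked by their cDNAs.

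The 5 nuclear runs of 100 or more sites that are nearest to 7SK in width were 314 to 1072 nt wide. A run with that many sites cannot be as narrow as the 7SK locus, so the difference in width was fixed by how they were picked. In 3 of the 5 the tallest nucleotide carried a smaller share than the 5.26% of 7SK, the lowest being 1.77%. The nearest, a plus-strand run on chromosome 5 between 147072567 and 147072880, held 1477 cDNAs on 200 sites, a mean of 7.39 per site, and covered 63.7% of its nucleotides. A minus-strand run on chromosome 11, beginning at 108872981, held 1212 cDNAs on 216 sites, a mean of 5.61. Of 200 nuclear runs 150 to 600 nt wide, none reached the 1559 cDNAs of the 7SK locus, the median being 13. These runs are all wider than the locus and were picked by width alone. As the locus was chosen for its cDNA numbers, this gap too is a property of the choice.

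**Figure D2:**
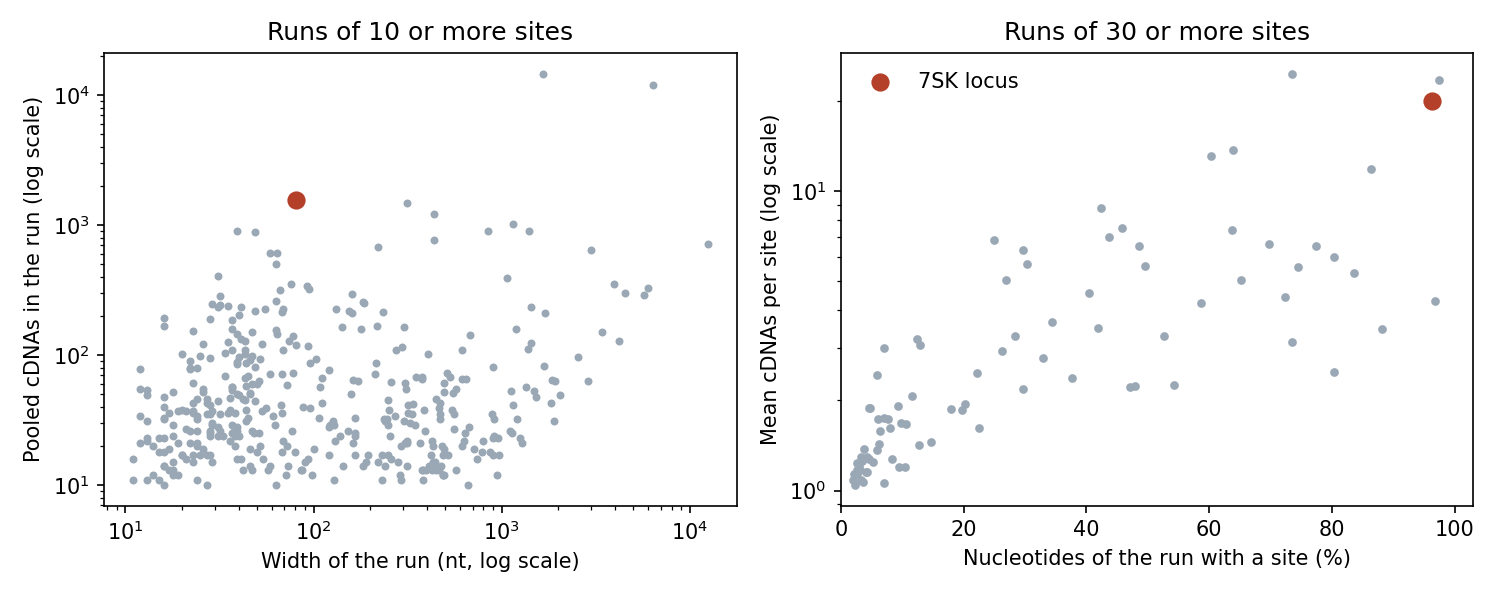
Left, pooled cDNAs (vertical, log scale) against width in nt (horizontal, log scale) for nuclear runs of 10 or more sites; right, mean cDNAs per site (vertical, log scale) against the percent of nucleotides with a site for the 86 nuclear runs of 30 or more sites; each point is 1 run and the red point is the 7SK locus. On the right 7SK has rank 3 in both measures, with 19.99 cDNAs per site and 96.3% of nucleotides contacted.

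Much of the 7SK sequence is repeated elsewhere in the annotated transcripts, mainly in the part up to nt 250. Mammalian genomes hold many copies of 7SK, most of them taken to be pseudogenes. In GENCODE M21, 239 other genes matched Rn7sk in the same sense, 234 of them annotated as miscellaneous RNA. Among all 239 genes, with only the best match of each counted, 228 matches ended at or before nt 250 of the RNA, and 6 reached nt 300 or beyond. Only 12 of these best matches had an identity of 90% or more. Gm24447, an annotated miscellaneous RNA, was identical to Rn7sk from nt 1 to nt 241. Gm23037 matched over the whole length at 89.2% identity.

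Of the 302 windows of 30 nt along the RNA, 222 occurred without a mismatch in at least 1 other annotated transcript, and none in more than 11. The 80 windows that did not formed a single stretch, starting from nt 218 to nt 297. With windows of 50 nt the stretch had 90 starts, from nt 193 to nt 282. With windows of 20 nt the longest stretch had 38 starts, from nt 260 to nt 297, and 67 windows in all were without a match. The 81 nt spanned by sites thus stand beside 38, 80 or 90 starts, by the window chosen, and beside the 109 nt that the windows of 30 nt cover. Copies in the genome outside annotated transcripts were not searched for, and windows with mismatches were not counted. The labels and the file do not say how reads that map to several places were treated, so whether contacts elsewhere on 7SK were lost in mapping was not tested. The 23.6% is thus the share of the RNA with a listed site, and says nothing of whether the other 253 nt were contacted.

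The sites could not be laid on the letters of the RNA directly, since no mm9 sequence or annotation was used here. Their order and spacing are known, but the nucleotide of 7SK at which they begin is not. The 78 sites can be placed inside the 331 nt in 251 ways. If the whole RNA lies within the window from 78023000 to 78023500, 142 ways remain, and in none of them do sites fall in the first 109 nt, at the end of the RNA that holds the 5′ hairpin. Under those 142 placements the span began between nt 110 and nt 251 and ended between nt 190 and nt 331.

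Placements differed in how many cDNAs lay ahead of 30 nt found in no other annotated transcript. The share of cDNAs whose next 30 nt are in no other transcript ran from 0% to 99.9% over the 142 placements, with a median of 57.4%. Sites past nt 301 have fewer than 30 nt of RNA ahead and were counted as not meeting this condition. Placements that end past nt 301 therefore have lower shares partly because of the end of the RNA, not of copies alone. In 8 placements the share was 99% or more. These put the 5′ end of the span between nt 214 and nt 221 and its 3′ end between nt 294 and nt 301, which is almost wholly within the stretch printed in capitals. The 8 placements hold for windows of 30 nt, the only length applied to the placements. With 50 nt the starts without a match ran from nt 193 to nt 282. With 20 nt their longest stretch ran from nt 260 to nt 297, so other lengths need not single out the same placements. The 109 placements that do not keep the RNA in the window all gave 0%. This was fixed beforehand, since they end at or before nt 189 and the windows without a match start at nt 218.

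Uridine, the base most readily crosslinked by ultraviolet light, also differed between placements. It makes up 22.4% of the RNA. Over the 142 placements, 11.4% to 30.9% of cDNAs fell on a uridine, with a median of 18.8%. The highest value, 30.9%, came from the placement at nt 220 to 300, and the next highest, 29.1%, from the placement 1 nt further on. Both are among the 8 placements named above, which were set by windows of 30 nt and whose values ran from 11.8% to 30.9%. When each site counted once the placement at nt 220 to 300 gave 17.9%, below the median of 19.2%, so its high value came from the depth at its uridines. Without the window condition a placement at nt 38 to 118 was higher, at 36.0% of cDNAs, and there no cDNA had a next 30 nt free of copies. Over the 142 placements the highest shares of cDNAs on A, C and G were 42.1%, 39.1% and 41.6%, all above that of uridine. Their medians were 26.1%, 27.3% and 26.1%, and these bases make up 19.6%, 29.9% and 28.1% of the RNA. No placement was adopted, and the bases at single sites are therefore not given.

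**Figure D3:**
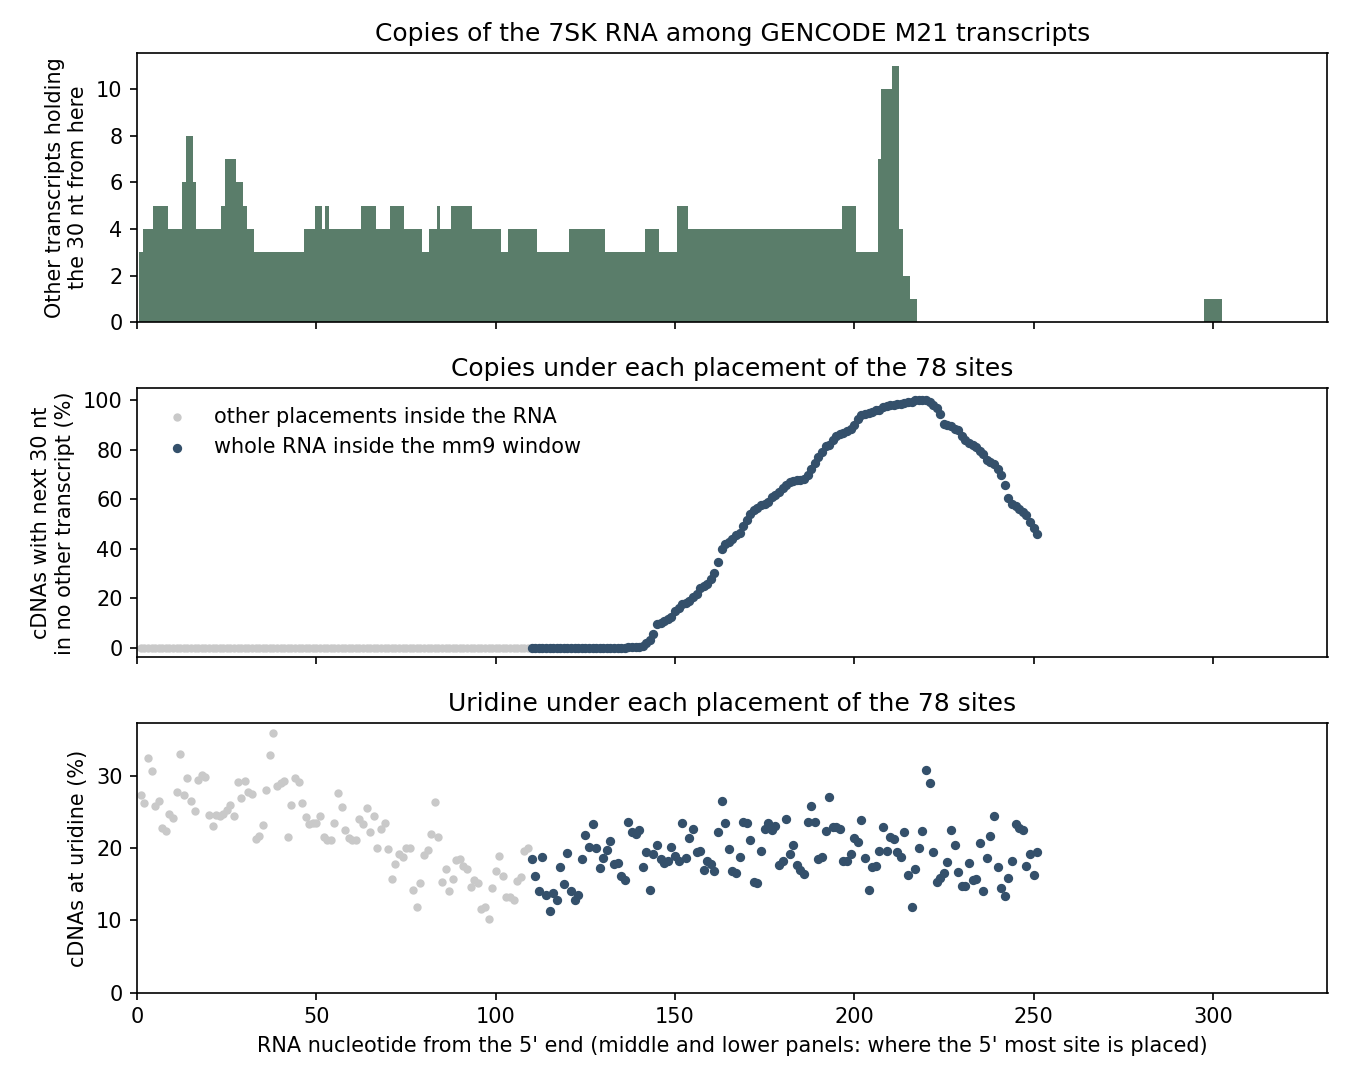
Top, number of other GENCODE M21 transcripts that hold the 30 nt starting at each nucleotide of the 7SK RNA; middle, percent of cDNAs whose next 30 nt are in no other transcript; bottom, percent of cDNAs on uridine, the lower panels with 1 point for each of the 251 placements of the 78 sites by the RNA nucleotide where they begin, dark for the 142 that keep the RNA in the mm9 window. In the middle panel, sites with fewer than 30 nt of RNA ahead count as not meeting the condition, which lowers the points at the right. That panel peaks at 99.9%, and the highest dark point of the bottom panel, 30.9%, is at nt 220.

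Base pairing gave no fixed value. In the minimum free energy fold predicted by RNAfold for the RNA alone, 61.0% of nucleotides were paired. The share of cDNAs on paired nucleotides was 43.6% to 73.7% over the 142 placements, with a median of 59.5%. This fold leaves out the proteins of the particle. The genes for the proteins of the 7SK particle and for other short RNA polymerase III RNAs were not analysed here, because the list names no genes and no mm9 annotation was used.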

How the data were processed

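The deposited file is 1 list of crosslink positions on mm9, whose values are a score: the authors gave each 1 nt position a whole number of cDNAs, with the sign as the strand. Per the file header, the authors summed 5 numbered data sets and kept positions with a false discovery rate below 0.05 (100 permutations, neighbourhood 15 nt, regions separately, Ensembl release 59). The labels list 4 libraries, and which data set belongs to which library is not stated in them. The submitters' processing notes name Bowtie 0.10.1. Nothing read here says how duplicate cDNAs and reads that map to several places were treated, and the depth of each library is unknown.

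Sites were taken by chromosome, strand and window, and joined into runs where less than 500 nt apart. The locus, the lists and the comparisons were chosen with earlier results of these data known. The nucleotides named are the 10 with the most cDNAs, the ends of the span, gaps of 5 nt or more and stretches of 10 nt or more with 10 or more cDNAs each; other steps and the runs 40 to 160 nt wide were chosen from the values. No model was fitted and no test was made. The label of the locus, 7SK, could be checked only by chromosome and strand. These match the annotation but were set by the rule that chose the sites, so they do not show that the sites lie on Rn7sk. Copies were sought with BLAST 2.17.0 (e-value under 1e-05, same sense) and by exact windows on both strands in GENCODE M21 transcripts, whose build is GRCm38; no coordinate was converted. The fold is from RNAfold 2.7.2. Alternatives were the minimum of cDNAs per site, the bounds of the locus, the length used, the denominator, the run gap and the placement. The joining of runs was checked on a small made-up set. A rule that places the sites by most uridine, not adopted here, was run on simulated profiles. The profile, copy and pairing steps were not simulated. Python 3.11.15, pandas 2.3.3 and scipy 1.17.1 were used.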

Additional observations from a re-analysis of the deposited data

How the results depend on the processing

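The count of 78 sites and 1559 cDNAs was 76 and 1557 with sites of 2 or more cDNAs, and unchanged when the whole run was taken. The share of the RNA contacted, 23.6%, was 16.3% for sites with 10 or more cDNAs and 96.3% when the span of the sites stood for the RNA's length, which follows from the shorter length. The share of listed cDNAs, 1.67%, was 1.77% of nuclear cDNAs and 0.231% when sites were counted. The 5 tallest nucleotides held 19.2% and the 20 tallest 53.2%, against 31.5% for 10. By cDNAs the run had rank 3, and rank 5 where gaps of 100 nt ended a run, since other runs then split and 7SK did not. The share of cDNAs on nucleotides predicted paired ran from 43.6% to 73.7% by placement; over all 251 placements, an alternative chosen after the data were seen, its median was 59.8%. No paired analysis was possible because the values are pooled over all libraries; for the same reason no library could be left out.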
